A study of Mus musculus with 2 samples.

Results

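Tight junction, gap junction, nectin and cell polarity genes were examined in the testis preparations of busulphan-treated and control mice. The members were chosen by name alone: the non-control probes whose gene name in the array files begins with a claudin, occludin, zonula occludens, junctional adhesion molecule, cingulin, MARVEL domain, nectin, coxsackievirus and adenovirus receptor, connexin A to C, afadin or Par polarity name. The rule took 78 of 15208 probes, for 53 of 11110 genes: 18 claudins, 6 other tight junction membrane proteins, 4 proteins of the tight junction plaque, 16 connexins, 5 nectins and afadin, and 4 polarity proteins. Tmem114, which the files call Cldn26, and the polarity proteins came in by their names in the same way.

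Of the 53 genes, 43 had a probe well above background on at least 1 array and were compared. The probes of the other 10 genes, among them Cldn1, Cldn2, Cldn6, Cldn10, Cldn16, Cldn17, Gjb6 and Gjc3, were not well above background on either array, and no ratio is given for them. The busulphan preparation came from adult male Swiss mice aged 3 months that had received 25 mg/kg body weight of busulphan, an alkylating drug widely used to deplete germ cells, 1 month earlier. The control preparation came from untreated males of the same strain and age. Both are labelled as isolated Sertoli cells, held back on the finer of a pair of strainers after enzymatic digestion of the testis and not cultured, and the number of mice behind each preparation is not labelled. Each was hybridised to 1 single-colour Cy3 array. With n = 1 per group every difference below is one between 2 libraries, without replication, and none was tested for significance.

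Sertoli cells are the supporting cells of the seminiferous tubule. Their tight junctions, built from claudins, occludin and junctional adhesion molecules and anchored by zonula occludens scaffolds, form with gap junctions and actin-based adhesions the blood-testis barrier, behind which meiotic and haploid germ cells develop. Connexins form the channels of gap junctions, nectins bind across cell borders and are tied to actin by afadin, and the Par proteins with atypical protein kinase C set up the apical domain of epithelia.

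Signals are given scaled, so that 100 is the 75th percentile of an array, which was a processed signal of 905 on the busulphan and 1046 on the control array. A log2 ratio is that of the scaled signals, busulphan over control, and a gene was called higher or lower at a log2 ratio of 1, which is 2-fold. Each gene takes its probe with the highest mean level. The scanner software's own error on the log2 ratio had a median of 0.21 over the 43 genes and covers the spot only. Where only 1 array read a probe well above background, the ratio is a bound, written as at least so many fold. Signals of different probes depend on the probe and are not compared between genes.

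The libraries differed in many genes. Of 9411 genes compared on the array, 31.3% were at least 2-fold higher and 29.6% at least 2-fold lower in the busulphan library. The preparations also differed in their cell type markers. Every one of the 11 spermatid markers compared lay at least 2-fold down, their summed scaled signal being 4116 in the busulphan and 51908 in the control library, where 7 of the 11 were saturated. Of 11 spermatocyte markers 9 were lower and none was higher, with sums of 4053 and 24766 in the busulphan and control libraries. Of 15 Sertoli cell markers 14 were higher and none lower, with sums of 20285 in the busulphan and 2604 in the control library and 2 saturated spots in the busulphan library. Of 9 macrophage markers 7 were higher and none lower, with sums of 568 in the busulphan and 104 in the control library. Dim spots carry surrogate values from the scanner software, so a signal above 0 does not show that a cell type was present. The part that these markers' shifts have in the junction gene ratios was not tested, and fewer cells of a type and less RNA per cell cannot be told apart.

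Of the 43 junction and polarity genes compared, 18 (41.9%) were at least 2-fold higher and 8 (18.6%) at least 2-fold lower, against 31.3% and 29.6% of all genes, and 17 lay within 2-fold. The median log2 ratio was 0.62, against 0.06 over all genes. At 4-fold, 10 were higher and 6 lower, against 14.4% and 17.8% of all genes. At least 8-fold higher were 7 of the 43, or 16.3% against 4.83% of all genes, namely Ocln, Cldn11, Tmem114, Gja1, Pard6b, Gja6 and F11r. At least 8-fold lower were 5, or 11.6% against 9.95%, among them Cldn13, Nectin3, Nectin4 and Pard6a. Of the 43 genes, 7 entered through 1 array only, which fixes the side on which they can differ. Among the 36 measured on both arrays, 17 were higher and 4 lower (47.2% and 11.1%), against 32.9% and 28.3% of the 8382 genes measured in the same way. Scaled by spike-in probes instead, 12 of the 43 were higher and 14 lower, against 16.2% and 46.5% of all genes.

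**Figure D1:**
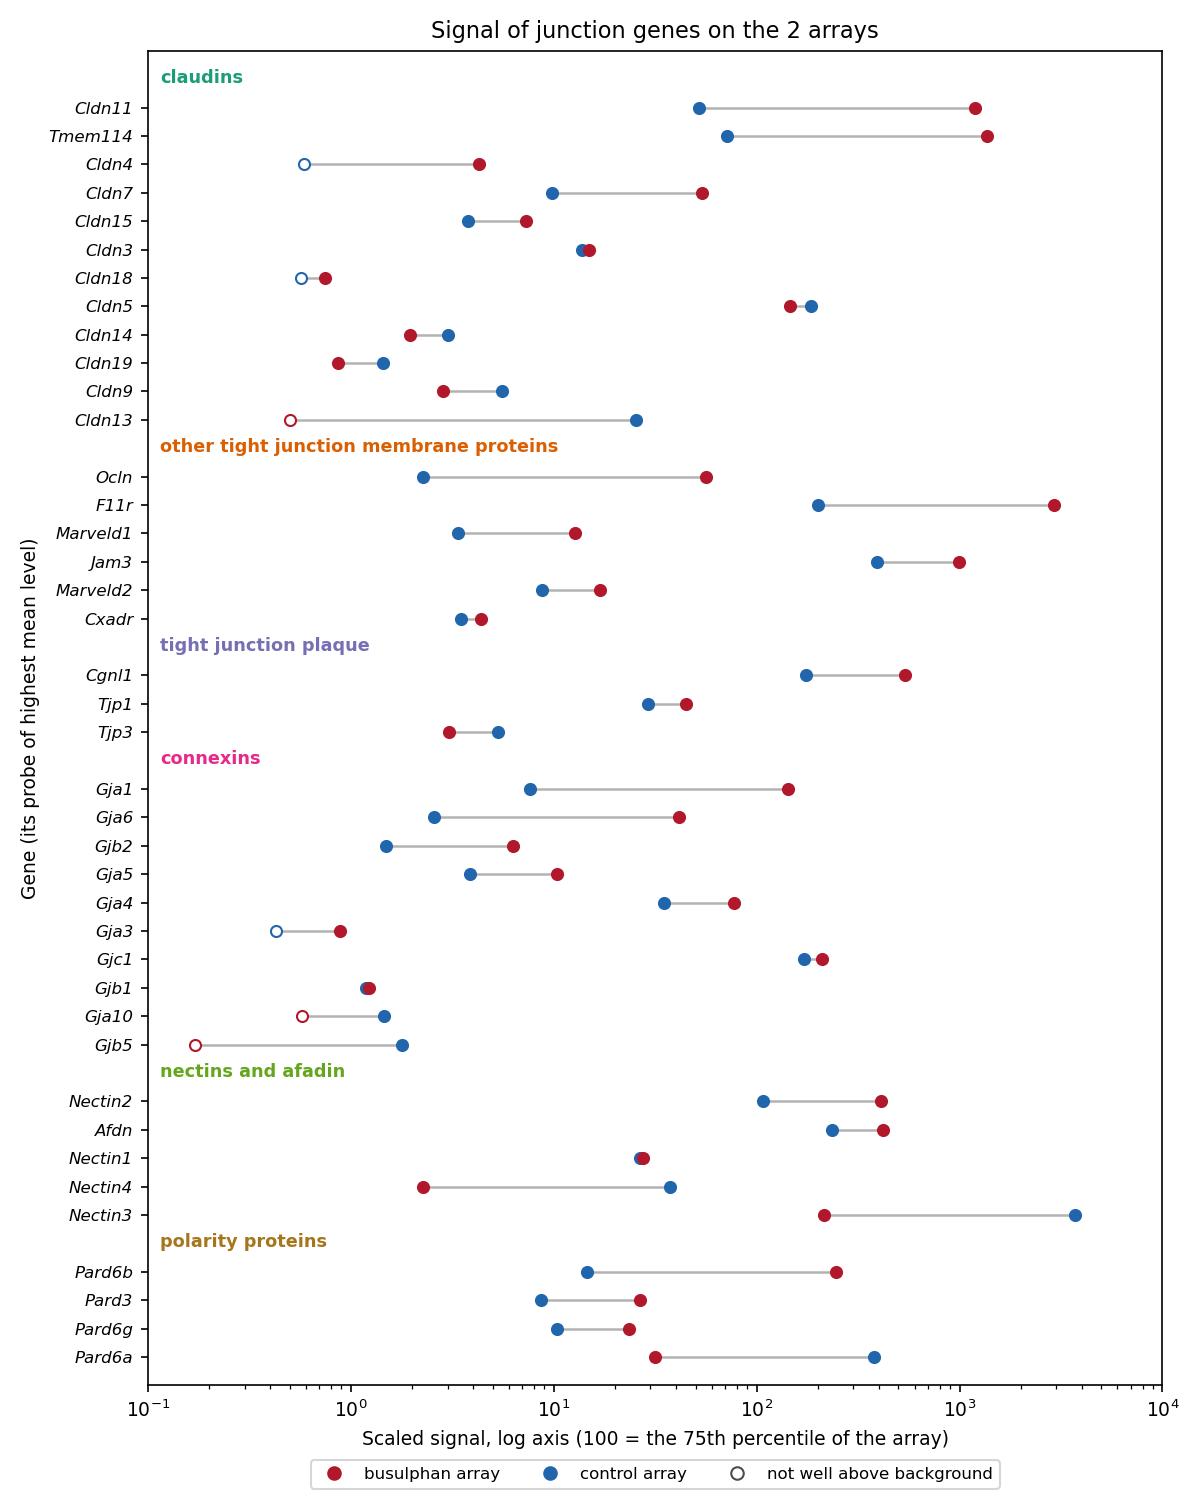
Scaled signal (log axis, 100 is the 75th percentile of the array) of 40 of the 43 junction and polarity genes compared, by role, with the busulphan array in red, the control array in blue and open circles for spots not well above background. Ocln, Cldn11, Tmem114, F11r, Gja1, Gja6 and Pard6b lie furthest right of their control signal, and Cldn13, Nectin3, Nectin4 and Pard6a lie far left of theirs, as does the open circle of Gjb5.

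The claudins, the tetraspan proteins that make the strands of tight junctions, lay on both sides. Tmem114, taken in by the name Cldn26, is counted with them and is among those higher. Among the 12 compared, the 2-fold threshold was passed upward by 4 (33.3%, near the 31.3% of all genes) and downward by 1 (8.33%, against 29.6%). The other 7 did not reach it, and the median log2 ratio was 0.09. Cldn11, the claudin that mouse Sertoli cells need to form tight junction strands, had a scaled signal of 1185 in the busulphan and 51.9 in the control library, 22.8-fold higher (log2 4.51, software error 0.20). Its ratio is read by a single probe, at chr3:31062922-31062981 of mouse build mm9 on the plus strand, and its sequence is shown because the claudin result rests on it.
Cldn11 probe: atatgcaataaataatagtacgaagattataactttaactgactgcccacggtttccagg

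Tmem114, a membrane protein of the wider claudin family known from the eye lens, had 1360 in the busulphan and 71.2 in the control library, 19.1-fold higher (log2 4.26). Both of its spots were well above background. Cldn7, an epithelial claudin, had 54.1 in the busulphan and 9.78 in the control library, 5.53-fold higher. Cldn4, another claudin of epithelia, had 4.28 in the busulphan library and was not well above background in the control library, at least 5.97-fold higher. With normexp background correction Cldn4 lay within 2-fold, at a log2 ratio of 0.80. Of 8 epithelial markers of the rete testis and ducts compared, 1 was at least 2-fold higher and 2 were lower, with summed scaled signals of 69.5 in the busulphan and 191 in the control library.

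Cldn3 and Cldn5, which have been described in Sertoli cells beside Cldn11, showed no such difference. Cldn3, an androgen-responsive claudin of mouse Sertoli cells, had 14.9 in the busulphan and 13.8 in the control library, a log2 ratio of 0.11 that lay below its software error of 0.21. Cldn5, best known from the endothelium of the blood-brain barrier, had 146 in the busulphan and 185 in the control library, a log2 ratio of -0.34. The ratio of Cldn3 changed its sign under 6 of 14 alternative settings. As scaled here neither gene reached 2-fold, unlike Cldn11.

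Cldn13, a claudin of rodents known from the red cell lineage, was the lowest of all 43 genes. It was not well above background in the busulphan library and had 25.4 in the control library, at least 36.8-fold lower (log2 at most -5.20). Of 5 red blood cell markers compared, 1 was at least 2-fold higher and 2 were lower. Hemgn was 77.5-fold lower by its brightest probe (log2 ratio -1.12 by another), Slc4a1 2.87-fold lower and Alas2 5.88-fold higher. The other markers, Hbb-bt and Hba-a1, had log2 ratios of -0.73 and -0.77. Summed scaled signals were 276 in the busulphan and 241 in the control library, of which Alas2 alone had 194 and 32.9. Cldn15, a claudin of the gut, had a log2 ratio of 0.95. Cldn9, Cldn19 and Cldn14, known from the inner ear or the kidney, had ratios of -0.97, -0.74 and -0.63. As scaled here all lay within 2-fold, but Cldn9 passed 2-fold on the lower side under 5 of 14 alternative settings. The other probe of Cldn19 gave 0.50, and both of its probes read scaled signals under 1.5 on either array. Cldn18, a claudin of lung and stomach, was above background in the busulphan library only, with a lower bound of 0.06.

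The other membrane proteins of tight junctions were higher or within 2-fold. The 2-fold threshold was passed upward by 4 of the 6 (66.7%, against 31.3% of all genes) and downward by none (against 29.6%), and their median log2 ratio was 1.63. Ocln encodes occludin, which spans the membrane beside the claudins. It had 56.0 in the busulphan and 2.26 in the control library, 24.8-fold higher (log2 4.63, software error 0.23), the highest ratio of the 43 genes. A second Ocln probe had 1.31 in the busulphan library and was not well above background in the control library, at least 1.83-fold higher. The probes are shown because they differ in their signal: the first lies at chr13:101268114-101268173 of mm9 and the second spans chr13:101309849-101311042, 1194 bases for 60 letters, both on the minus strand.
Ocln first probe: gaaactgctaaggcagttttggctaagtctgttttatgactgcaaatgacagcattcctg
Ocln second probe: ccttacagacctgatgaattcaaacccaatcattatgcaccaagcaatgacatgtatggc

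F11r encodes junctional adhesion molecule A. It had 2927 in the busulphan and 201 in the control library, 14.6-fold higher (log2 3.87, software error 0.20). Jam3, a junctional adhesion molecule needed for the shaping of spermatids, had 993 in the busulphan and 391 in the control library, 2.54-fold higher, and its second probe, dim in the control library, gave at least 4.26-fold. Scaled by housekeeping genes or by spike-in probes the ratio of Jam3 lay within 2-fold, at 0.46 at the lowest.

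Marveld1, which shares the MARVEL membrane domain with occludin, had 12.7 in the busulphan and 3.39 in the control library, 3.76-fold higher. Marveld2, or tricellulin, which seals the corners where cells of an epithelium meet, had 16.9 in the busulphan and 8.78 in the control library, a log2 ratio of 0.95, just within 2-fold. Cxadr, an adhesion receptor of Sertoli and germ cells, had 4.40 in the busulphan and 3.50 in the control library, a log2 ratio of 0.33. Its other probes disagreed: one gave 1.99, and one that was dim in the busulphan library gave at most -0.43, so that no single value stands for the gene.

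Of the 4 genes of the scaffolds under the membrane, 1 passed 2-fold upward (25%, against 31.3% of all genes). None passed it downward by its brightest probe (against 29.6%). The gene that passed upward, Cgnl1, was read in opposite directions by its probes, as given below. Tjp1 and Tjp3 encode zonula occludens proteins, which tie claudins and occludin to actin. Tjp1 had 44.6 in the busulphan and 29.1 in the control library, a log2 ratio of 0.62. Tjp3 had 3.05 in the busulphan and 5.32 in the control library, a log2 ratio of -0.80. As scaled here neither reached 2-fold, unlike Ocln and Cldn11, whose proteins they bind. Under 3 of 14 alternative settings Tjp3 passed 2-fold on the lower side.

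Cgnl1, which encodes the cingulin-like protein paracingulin, was read in opposite directions by its 2 probes. The brighter, at chr9:71474366-71474425 of mm9, had 536 in the busulphan and 175 in the control library, 3.06-fold higher (log2 1.61, software error 0.20). The other, at chr9:71476976-71477035, had 7.37 in the busulphan and 409 in the control library, 55.6-fold lower (log2 -5.80, software error 0.21). Both lie on the minus strand and share the same RefSeq accession in the files, which name 0 Ensembl transcripts for the brighter probe and 3 for the other. The gap between them, 7.41 on the log2 scale, was the widest within any of the 14 genes with several probes compared. Their base composition was close, with 43.3% and 45% G and C. The gene has no single direction in these data, and both sequences are printed for that reason.
Cgnl1 brighter probe: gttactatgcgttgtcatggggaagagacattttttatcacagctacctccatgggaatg
Cgnl1 other probe: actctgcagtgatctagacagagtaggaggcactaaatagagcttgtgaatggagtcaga

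**Figure D2:**
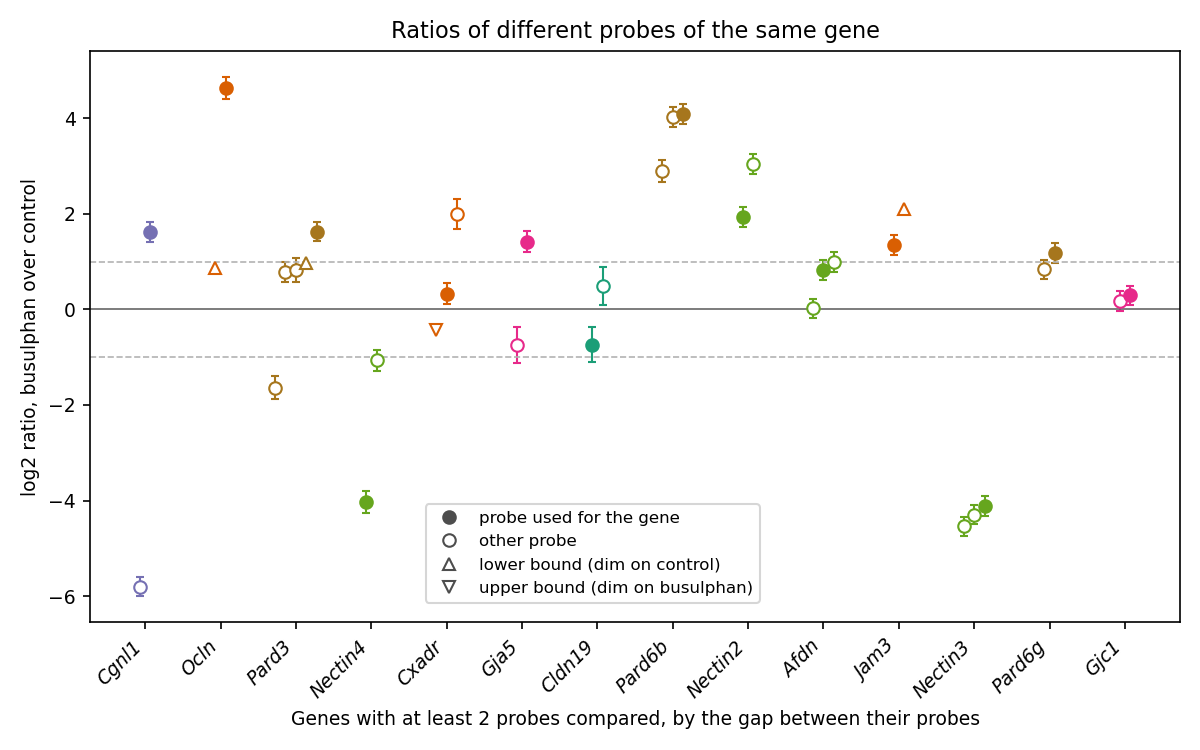
Log2 ratio, busulphan over control, of every probe compared for the 14 genes with at least 2 such probes, with the software error as bars, filled symbols for the probe used for the gene and triangles for bounds. The probes of Cgnl1 lie at 1.61 and -5.80, while the 3 probes of Nectin3 lie between -4.54 and -4.11.

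Probes of the same gene often differed. Among the 14 genes with several probes compared, the median gap between the highest and lowest log2 ratio was 1.21, and 9 had a gap over 1 (64.3%), against 44.6% of 2660 such genes on the array. Cgnl1 and Pard3 had probes at least 2-fold higher and probes at least 2-fold lower (14.3%, against 6.54% over the array). Both probes of Gjc1 lay within 0.12 of each other.

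The connexins lay on both sides, in shares not far from those of all genes. The threshold was passed upward by 5 of the 12 compared (41.7%, against 31.3% of all genes) and downward by 4 (33.3%, against 29.6%), and their median log2 ratio was 0.30. Gja1, the main connexin between Sertoli cells, had 143 in the busulphan and 7.68 in the control library, 18.6-fold higher (log2 4.22, software error 0.21). Gja6, a rodent connexin known from the testis, had 41.5 in the busulphan and 2.58 in the control library, 16.04-fold higher (log2 4.004, software error 0.22). These were the only connexins past 8-fold on the higher side.

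Connexins known from other tissues had smaller ratios. Gja4 and Gja5 form gap junctions of the endothelium. Gja4 had 77.7 in the busulphan and 34.9 in the control library, 2.23-fold higher. Gja5 had 10.4 in the busulphan and 3.88 in the control library, 2.67-fold higher by its brighter probe, and a log2 ratio of -0.74 by the other. Among 10 endothelial markers, 2-fold was passed upward by 2 and downward by 2. Their median log2 ratio was -0.13, with summed scaled signals of 1443 in the busulphan and 613 in the control library, where Robo4 alone had 1082 and 150. Gja4 lay within 2-fold under 5 of the 14 alternatives, all of them other scalings, and Gja5 under 3.

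Gjb2, a connexin of epithelia and the inner ear, had 6.29 in the busulphan and 1.499 in the control library, 4.20-fold higher, and a log2 ratio of 0.81 with normexp. Gjc1, a connexin of smooth muscle and the heart, had 211 in the busulphan and 172 in the control library, a log2 ratio of 0.29, and 0.17 by its second probe. Gjb1, the connexin of hepatocytes, had 1.24 in the busulphan and 1.19 in the control library, a log2 ratio of 0.06 that lay below its software error of 0.33. Gja3, a lens connexin, was above background in the busulphan library only, with a lower bound of 0.31.

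The lower connexins had weak spots in the busulphan library. Among them, Gjb5 of skin and placenta and Gja10 of the retina were well above background in the control library only, at 1.79 and 1.46. Their ratios were bounds: Gjb5 was at least 2.58-fold lower and Gja10 at least 2.11-fold lower. With normexp correction, whose offset shrinks the ratios of dim spots, all 4 lower connexins lay within 2-fold, Gjb5 at -0.08 and Gja10 at -0.06.

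The nectins held the lowest ratios among genes measured on both arrays. Of the 5 genes of nectins and afadin, 1 passed 2-fold upward (20%, against 31.3% of all genes). Downward it was passed by 2 (40%, against 29.6%), and 2 did not pass it. Nectin3, named Pvrl3 in the files, is the nectin of spermatids, with which they hold to Nectin2 on Sertoli cells in the mouse. Its brightest probe had 215 in the busulphan and 3715 in the control library, 17.3-fold lower (log2 -4.11, software error 0.20). The other 2 probes had 52.3 and 39.4 in the busulphan library and 1025 and 916 in the control library, 19.6-fold and 23.3-fold lower. All 3 probes, which lie on the minus strand and carry 2 different RefSeq accessions, gave log2 ratios between -4.54 and -4.11. They lie at chr16:46448296-46448355, chr16:46454777-46454836 and chr16:46458994-46459053 of mm9 and are shown because separate sequences gave like ratios.
Nectin3 brightest probe: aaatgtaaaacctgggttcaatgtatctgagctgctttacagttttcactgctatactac
Nectin3 second probe: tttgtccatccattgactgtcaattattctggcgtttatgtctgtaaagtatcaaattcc
Nectin3 other probe: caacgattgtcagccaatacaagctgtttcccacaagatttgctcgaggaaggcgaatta

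Nectin2 had 409 in the busulphan and 107 in the control library, 3.83-fold higher (log2 1.94, software error 0.20), and its second probe had 109 in the busulphan and 13.3 in the control library, 8.19-fold higher. The partners Nectin2 and Nectin3 thus lay on opposite sides, each by all of its probes. Nectin4, a nectin of placenta and skin, had 2.28 in the busulphan and 37.3 in the control library, 16.3-fold lower, and its second probe had 3.56 in the busulphan and 7.48 in the control library, 2.10-fold lower. Nectin1 had 27.5 in the busulphan and 26.5 in the control library, a log2 ratio of 0.05 that lay below its software error of 0.20. Afdn, the actin-binding partner of all nectins, had 419 in the busulphan and 236 in the control library, a log2 ratio of 0.83, and its other 2 probes gave 0.98 and 0.02.

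The polarity genes showed opposite ratios for copies of the same protein. Par6 proteins link Par3 to atypical protein kinase C and are encoded by Pard6a, Pard6b and Pard6g. Pard6b had 246 in the busulphan and 14.5 in the control library, 16.9-fold higher (log2 4.08, software error 0.20), and its other 2 probes gave log2 ratios of 4.03 and 2.89. Pard6a had 31.5 in the busulphan and 380 in the control library, 12.1-fold lower (log2 -3.60, software error 0.20). Pard6g had 23.5 in the busulphan and 10.4 in the control library, 2.26-fold higher, with a second probe at 0.83, and lay within 2-fold under 5 of 14 alternatives.

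Pard3 encodes Par3, the scaffold that binds junctional adhesion molecules. Its brightest probe had 26.6 in the busulphan and 8.63 in the control library, 3.09-fold higher (log2 1.63). Of its other 4 probes, 3 gave log2 ratios of 0.78, 0.83 and at least 0.97, and 1 gave -1.63, with 1.89 in the busulphan and 5.87 in the control library. The 5 probes carry 4 different accessions of the gene. By the median over its probes the gene lay within 2-fold.

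Other genes of the barrier were counted from 4 lists, against the same shares of all genes, 31.3% higher and 29.6% lower. Of their 71 genes compared, 11 had probes of opposite sign. Among 20 other adhesion genes, 2-fold was passed upward by 11 (55%) and downward by 3 (15%), and the median log2 ratio was 1.17. Highest were Lsr, which builds tricellular junctions, the integrin Itga6, and the immunoglobulin-type adhesion molecule Cadm1, at 22.4-fold, 18.9-fold and 9.33-fold. A further probe of Cadm1 ran the other way, at a log2 ratio of -0.95. Ctnnd1, also counted as higher, had another probe at -2.95. Lowest were the laminin chain Lamb3 and plakoglobin, Jup, at 21.6-fold and 9.36-fold, and Igsf5, another junctional adhesion molecule, at least 8.72-fold lower.

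Of 14 actin genes of the ectoplasmic specialization, the actin-rich adhesion of Sertoli cells, 8 (57.1%) were higher by that measure and 2 (14.3%) lower, and their median was 1.30. Wasl and Actr3, which nucleate actin branches, and the bundling protein Espn were highest, at 7.48-fold, 6.06-fold and 6.74-fold. Vasp, which extends actin filaments, was 19.0-fold lower, and the kinase Limk1 2.13-fold lower, followed by villin, Vil1, at a log2 ratio of 0.10.

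Other polarity and scaffold genes lay on both sides. The threshold was passed upward by 5 of the 16 (31.2%) and downward by 7 (43.8%), and the median was -0.38. The atypical kinase Prkci was 6.10-fold higher, with 192 in the busulphan and 31.4 in the control library. Its relative Prkcz was 9.30-fold lower by its brightest probe, with 61.5 in the busulphan and 572 in the control library, but another probe gave a log2 ratio of 1.35, past 2-fold the other way. Prkcz therefore has no single direction here. The GTPase Cdc42, which activates the Par6 complex, was 5.19-fold and Llgl1, a polarity protein of the lateral membrane, 4.37-fold higher. Lowest beside Prkcz were Ybx3, a transcription factor that binds Tjp1, at 21.5-fold lower and the scaffold Lin7c at 6.25-fold lower, of which another probe gave a log2 ratio of 0.84.

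Of 21 genes listed as regulators of the barrier, 15 (71.4%) passed 2-fold upward and none downward by the brightest probe, and their median was 1.90. Among those counted as higher, another probe of Prkaa1 gave a log2 ratio of -2.88 and another of Rac1 one of -0.20. Sox8, Sox9 and Fshr were highest, at 43.9-fold, 34.8-fold and 29.4-fold, but 4 of the list are also Sertoli cell markers, and without them 11 of 17 were higher. The lowest were Rptor and Mmp9, at log2 ratios of 0.26 and 0.41, and the adhesion kinase Ptk2, at -0.85 by its brightest probe and 0.87 by another. The cytokine genes Tgfb2 and Tgfb3, which loosen the barrier in rodents, were 3.46-fold and 4.04-fold higher.

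**Figure D3:**
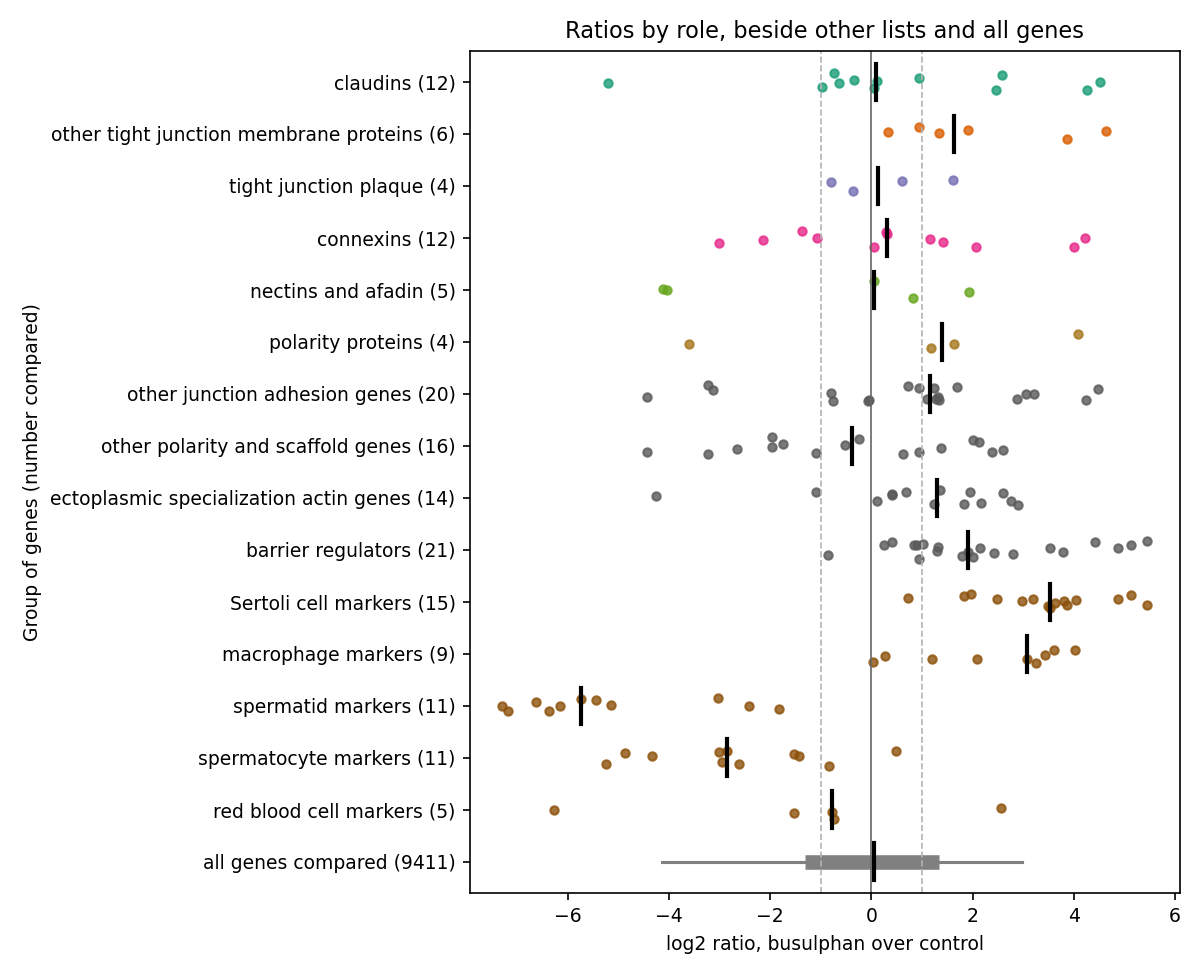
Log2 ratio, busulphan over control, of the junction and polarity genes by role, of other barrier lists and of cell type markers, each point a gene and each black bar a median. The bar for all 9411 genes is thick from the 25th to the 75th percentile and thin from the 5th to the 95th. Sertoli cell markers have a median of 3.53 and spermatid markers one of -5.74, with the roles of the junction genes between them.

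Start site windows were looked at for the genes with large ratios. RefSeq windows of build GRCm38.p6, 300 bases each and lying mostly before a start, were held for 41 of the 53 genes, among them all 10 that were at least 4-fold higher and 3 of the 6 at least 4-fold lower. Some genes have several starts, and all of their windows were counted: 56 for the 41 genes, 12 for the 10 higher and 4 for the 3 lower. A GC box (GGGCGG, either strand) stood in 9 of the 12 and 3 of the 4 windows, against 35.7% of all 32851 mouse windows, and in 31 of the 56. An E-box of the kind bound by Snail (CAGGTG) stood in 7 of the 12 and 1 of the 4, against 20.2%, and in 20 of the 56. By gene, the E-box stood in 6 of the 10 higher and 1 of the 3 lower. The 2 windows of Ocln overlap and share 1 such site, which is counted in both. The letters TGACGT of cyclic AMP response elements stood in 2 of the 12 and 1 of the 4, against 7.51%, and in 10 of the 56. The letters AACAAT of Sox factors and AGATAA of GATA factors stood in 1 of the 12 each and in none of the 4, against 10.7% and 11.2%. All were searched on both strands, and none of the 5 motifs contains another. A match is a description of these letters only.

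The windows of Cldn11, Ocln, Pard6b and Nectin3 are shown, 3 of the genes with the highest ratios and the lowest nectin. Ocln has a second window, which overlaps the one shown. They lie on GRCm38.p6 at chr3:31149670-31149969 (plus strand), chr13:100552449-100552748 (minus), chr2:168080754-168081053 (plus) and chr16:46496918-46497217 (minus). Letters in capitals mark the motifs named above, on either strand. Cldn11 holds 1 GC box and none of the others, Ocln 1 GC box and 2 E-boxes, Pard6b 4 GC boxes and 2 E-boxes, and Nectin3 5 GC boxes.
Cldn11 window: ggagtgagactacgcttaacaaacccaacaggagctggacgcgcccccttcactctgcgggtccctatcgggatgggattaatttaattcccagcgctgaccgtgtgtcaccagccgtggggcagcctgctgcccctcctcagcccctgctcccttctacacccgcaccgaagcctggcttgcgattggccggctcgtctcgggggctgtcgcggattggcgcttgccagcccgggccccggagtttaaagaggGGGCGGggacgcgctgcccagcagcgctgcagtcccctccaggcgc
Ocln window: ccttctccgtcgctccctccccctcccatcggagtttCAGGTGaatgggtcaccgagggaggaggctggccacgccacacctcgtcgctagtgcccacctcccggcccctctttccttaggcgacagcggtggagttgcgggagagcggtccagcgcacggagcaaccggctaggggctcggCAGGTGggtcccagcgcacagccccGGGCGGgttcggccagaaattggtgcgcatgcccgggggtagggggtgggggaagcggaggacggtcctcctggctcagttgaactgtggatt
Pard6b window: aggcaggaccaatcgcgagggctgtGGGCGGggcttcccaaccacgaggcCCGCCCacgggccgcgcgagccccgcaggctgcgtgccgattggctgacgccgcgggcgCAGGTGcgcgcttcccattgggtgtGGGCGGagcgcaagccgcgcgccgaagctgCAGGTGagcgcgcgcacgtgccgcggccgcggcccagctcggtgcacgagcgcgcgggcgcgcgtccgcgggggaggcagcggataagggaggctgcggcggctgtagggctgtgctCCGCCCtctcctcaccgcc
Nectin3 window: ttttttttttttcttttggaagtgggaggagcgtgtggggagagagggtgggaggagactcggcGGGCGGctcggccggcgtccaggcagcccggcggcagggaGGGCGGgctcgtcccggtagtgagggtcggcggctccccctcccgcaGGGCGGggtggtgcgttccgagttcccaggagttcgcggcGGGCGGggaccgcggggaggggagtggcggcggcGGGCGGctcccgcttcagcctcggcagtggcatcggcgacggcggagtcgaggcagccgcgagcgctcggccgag

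The size of the ratios depended on the processing. Of the 26 genes called at 2-fold, 14 kept that call under every one of 14 alternative settings that gave them a value (13 for Cldn13), 10 of them higher (Ocln, Cldn11, Tmem114, Gja1, Pard6b, Gja6, F11r, Cldn7, Nectin2 and Marveld1) and 4 lower (Cldn13, Nectin3, Nectin4 and Pard6a). The ratio of Cldn11 ranged from 3.63 to 4.90, that of F11r from 2.98 to 4.45 and that of Nectin3 from -4.99 to -3.49. That of Ocln ranged from 2.75 to 4.81. Of the 17 genes not called, 10 passed 2-fold under at least 1 alternative, Cldn9 and Tjp3 among them on the lower side. In 8 genes the ratio changed its sign under at least 1 alternative, and for Cldn3 and Nectin1 it did so under 6. Cgnl1 changed its sign by the median over probes, to -2.09.

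**Figure D4:**
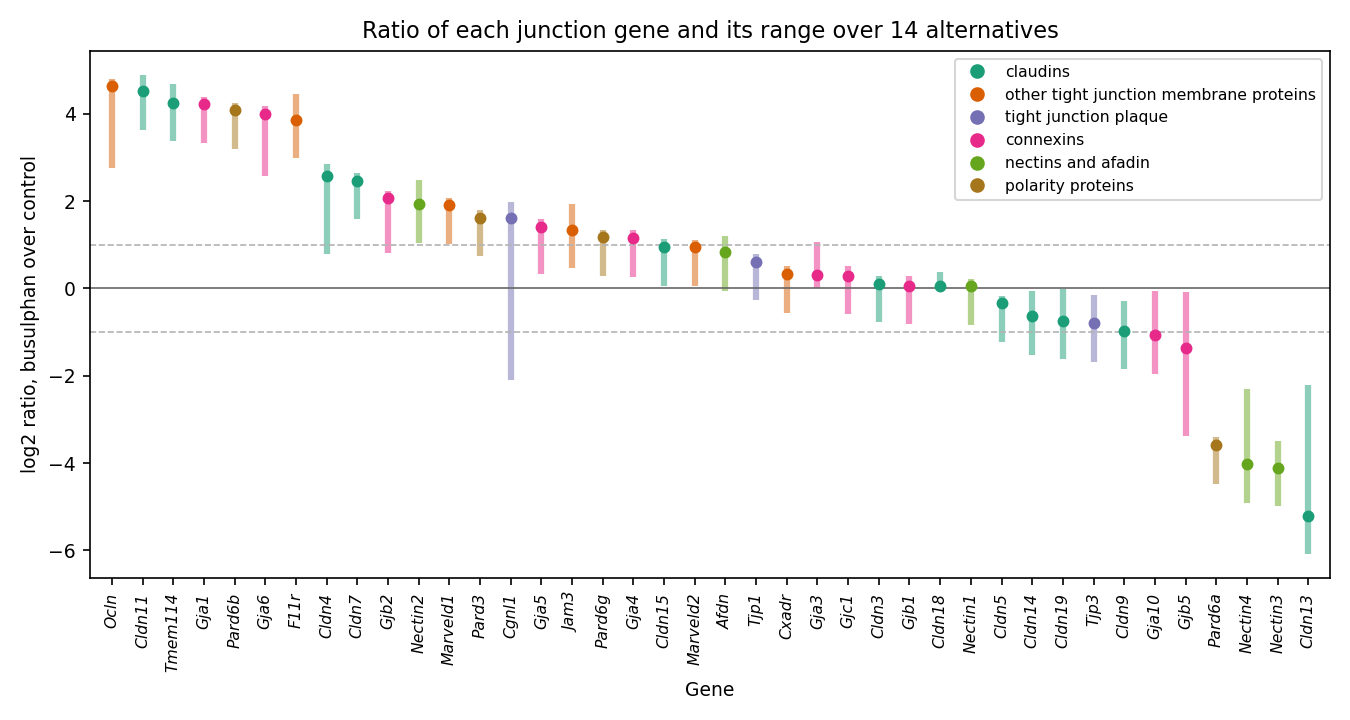
Log2 ratio, busulphan over control, of 40 of the 43 genes (point) with its lowest and highest value over up to 14 alternative settings (bar), coloured by role. Cldn11 stays between 3.63 and 4.90 and Nectin3 between -4.99 and -3.49, while the bars of Cgnl1 and of dim connexins such as Gjb5 are wide.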

How the data were processed

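Total RNA was labelled with Cy3, per the labels' protocols, and hybridised to 1 array a group. Per the file headers, the scanner images became intensity values in Agilent Feature Extraction 11.5.1.1, with a background surface subtracted and surrogate values for dim spots. The deposited log2 table equals log2 of that signal minus a constant per array, 9.82 for busulphan and 10.03 for control, close to the array's 75th percentile. Its medians were -2.77 for busulphan and -2.94 for control, and it was used as an alternative.

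Each of 15208 non-control probes was divided by the 75th percentile of its array and taken to log2 in Python 3.11.15, and 4 outlier probes were then left out. On the busulphan array 79.3% of probes were well above background and 18 saturated, on the control array 80.9% and 106. The number of arrays limits the precision, and no test was made. Counts are of genes past 2-fold. A RefSeq table named 13300 probes by accession, 74 of the 78 members' among them, and the file's name served the other 1908. Of the members, 6 have a newer symbol. Coordinates are those of the files (mm9), which give no exon or transcript part for a probe. A dim spot's bound uses the higher of its own signal and the lowest signal well above background on its array. Where such a bound ran the other way, the ratio was set to 0. Normexp used limma 3.58.1. Calling was run on simulated signals that held known fold changes and the software's spot error only. They held no variation between preparations, so that run cannot show how reliable a call is between unreplicated preparations. All genes at least 4-fold either way were described, with a set of barrier genes whatever their value, and the 3 highest and 3 lowest of each other list. A few genes of the lists are counted but not reported by name here. Members, lists and rules were chosen with earlier results of these data known. The arrays share a scan time per the file headers; preparation, labelling and array cannot be told apart from the group.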

Additional observations from a re-analysis of the deposited data

How the results depend on the processing

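With 1 array a group, no replicate could be left out and no paired analysis was possible because the groups have 1 sample each. Scalings shift all ratios together: the median over all genes, 0.06 as reported, was -0.81 with spike-in probes, -0.31 with housekeeping genes and 0.24 with the 75th percentile of bright probes. The count of junction genes at least 2-fold higher, 18 as reported, lay between 12 and 21 over the 14 alternatives. Of all genes 31.3% were higher as reported. That share was 16.2% with spike-ins, which gave the 12, and 34.7% with the 75th percentile of bright probes, which gave the 21. At a 4-fold threshold the count was 10, against 14.4% of all genes. The count at least 2-fold lower, 8 as reported, was 4 with normexp, 4 with probes well above background on both arrays and 14 with spike-in scaling. Of all genes 29.6% were lower as reported, and 22.7%, 28.85% and 46.5% under these settings in turn. The median log2 ratio of the junction genes, 0.62 as reported, was 0.23 with housekeeping genes, 0.40 with loess, 0 with spike-ins, 0.95 with probes bright on both arrays, 0.31 with no filter on dim probes and 0.33 with the median over probes. The median of 0 with spike-ins is a set value: Cldn18 and Gja3 stood at 0 there, as bounds that ran the other way. It does not show that the ratios centre on no change. A shift under 0.21, the median software error, was read as no move. The ratio of Cgnl1 was -2.09 by the median over probes. For the other barrier lists, alternatives added once the values had been seen, 39 genes were higher as reported and 25 with spike-in scaling. With spike-ins, Afdn was at -0.06, Cldn3 at -0.77 and Tjp1 at -0.27. The cause of each move was not tested. Depth here is signal over background: Cldn4, Gjb2, Gjb5 and Gja10, among others, lost their call with normexp.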

Other observations

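Some junction genes with probes within 200 kb of each other had ratios on different sides of 0. Whether other genes lie between them was not looked at. On chromosome 1 of mm9 the probes of Nectin4 and F11r lie 77.0 kb apart, and Nectin4 had a log2 ratio of -4.03 and F11r one of 3.87. On chromosome 5 the probes of Cldn13, Cldn4 and Cldn3 lie in that order with gaps of 30.6 and 41.8 kb, at log2 ratios of at most -5.20, at least 2.58 and 0.11. On chromosome 4 the connexin genes Gja4 and Gjb5 are 43.8 kb apart by their probes, at 1.16 and at most -1.37. On chromosome 13 Ocln and Marveld2, 98.1 kb apart, had ratios of 4.63 and 0.95. Gja3 and Gjb2 on chromosome 14, 64.0 kb apart, had at least 0.31 and 2.07. The pairs come from the members with probes within 200 kb, after the ratios were known.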
